A study of Mus musculus with 12 samples.

Results

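The cyclins of the A, B, D, E and F families were followed in mouse pluripotent cells sorted by mitochondrial membrane potential. The members were fixed by name, as Ccna1, Ccna2, Ccnb1, Ccnb2, Ccnd1, Ccnd2, Ccnd3, Ccne1, Ccne2 and Ccnf, and each of the 10 genes had 1 probe set among the 25206 on the arrays. The cells, from female C57BL/6 mice, were embryonic stem cells (ESC) or induced pluripotent stem cells (iPSC), the latter being body cells returned to a pluripotent state. Both were grown without serum or feeder cells in 2iLIF medium on gelatin. This medium combines a pair of kinase inhibitors with the cytokine LIF and holds mouse cells in an undifferentiated state. No group carried a gene deletion or transgene named in the labels, and the labels do not give the cell lines, the animals or how the iPSC were made. All cells were stained with TMRM, a dye that mitochondria take up more strongly the higher their membrane potential. Flow sorting then gave 4 groups of 3 arrays each, namely ESC low, ESC high, iPSC low and iPSC high, where low and high refer to the membrane potential. The arrays of each group are numbered 2, 3 and 4, and values below are given in that order. The labels do not state whether the 3 arrays of a group stem from separate cultures. The p-values therefore describe only the scatter among these samples, and that scatter may be technical.

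Cyclins are the regulatory subunits of the cyclin-dependent kinases (CDKs), and their changing levels order the cell cycle. D cyclins with CDK4 and CDK6 act in G1, E cyclins with CDK2 at entry into S phase, A cyclins with CDK2 and CDK1 through S and G2, and B cyclins with CDK1 in mitosis. Cyclin F carries an F-box and acts as a substrate receptor of an SCF ubiquitin ligase in G2 rather than as a CDK subunit. Mouse pluripotent cells grown with serum are known for a short G1 phase, and the length of G1 in the cells used here was not measured. In cycling cells the mRNAs of B cyclins and cyclin F peak in G2 and mitosis, and those of E cyclins peak near the start of S phase.

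Of the 10 cyclins, 3 differed between high and low fractions when both cell types were averaged. Ccnb1 was 1.72-fold higher in the high fractions and Ccnf 1.40-fold higher, whereas Ccne2 was 1.68-fold lower. All 3 moved in the same direction in 6 of 6 numbered pairs of a high and a low array. They were called on these same arrays, so the pairs are no separate support. The share of all probe sets with such agreement was not counted. The call was an adjusted p under 0.05 in limma, a linear model fitted to all probe sets, with Benjamini-Hochberg adjustment over the 25206. Of all probe sets, 1.6% were called higher and 0.905% lower in this comparison. The 10 cyclins had a median log2 difference of 0.08, against 0.00 over all probe sets. Values are log2 expression values, on which a step of 1 is a doubling, and errors of differences are standard errors (SE). In sorted bulk samples, fewer cells of a kind and less RNA per cell cannot be told apart.

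**Figure D1:**
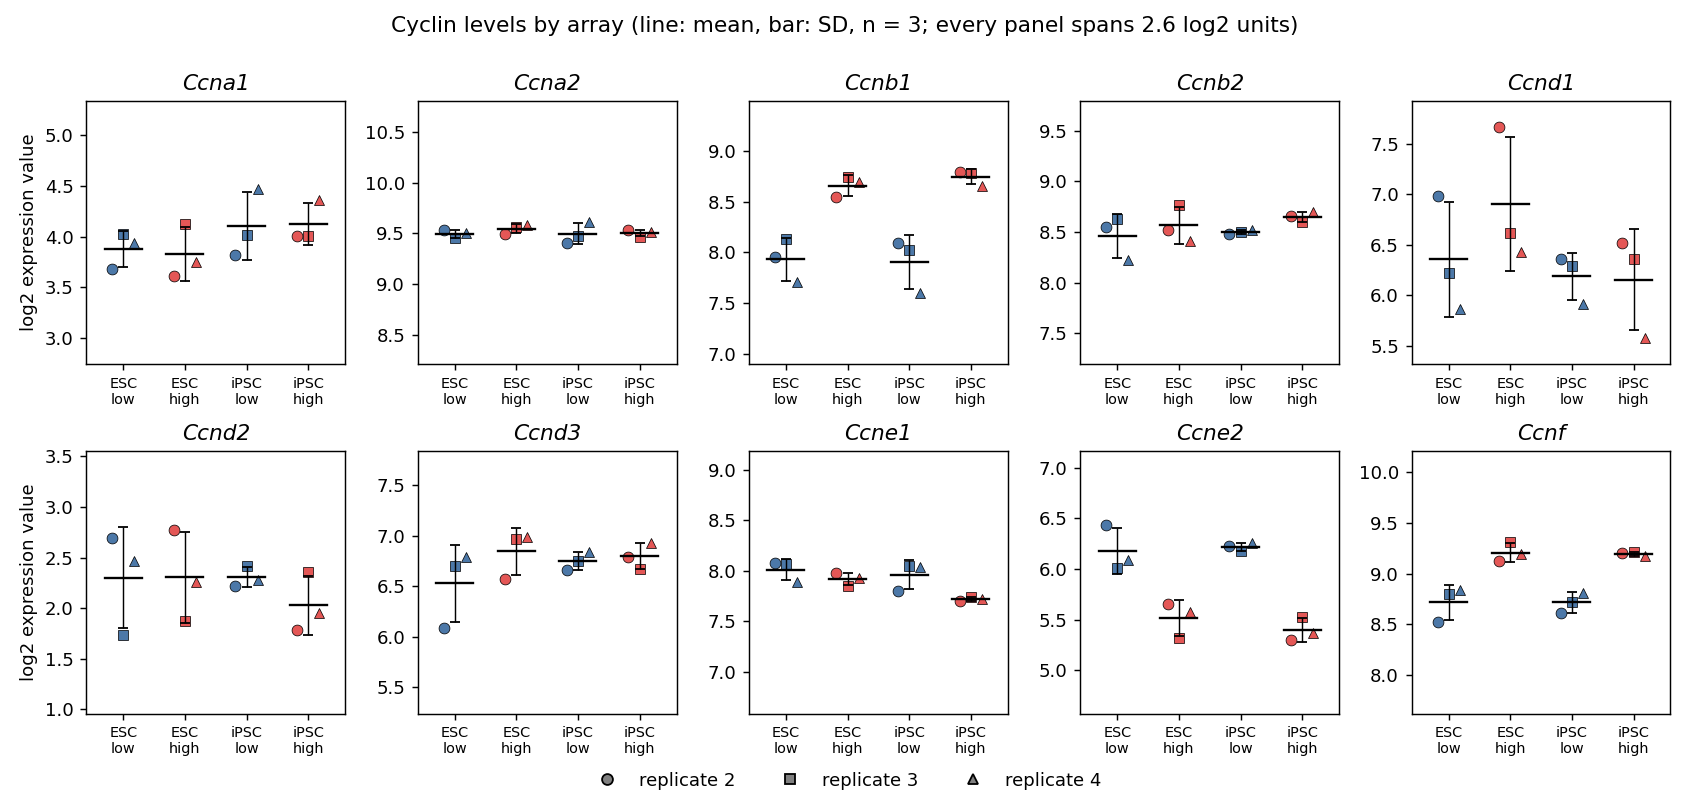
Log2 expression value of each of the 10 cyclins in each of the 12 arrays, with the group mean (line) and SD (bar, n = 3), blue for low and red for high membrane potential, and every panel on the same span. Ccnb1 and Ccnf lie higher and Ccne2 lower in all high arrays of both cell types, while Ccna2 stays between 9.41 and 9.61 in all 12.

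The arrays resembled each other closely, with medians of 3.51 to 3.61 and correlations over all probe sets of 0.991 to 0.994 within groups and 0.986 to 0.994 between groups. The summed level of a list of 9 pluripotency genes, divided by their number, was 8.15 to 8.38 in every array, all 9 lay above the array median in each group, and 0 were called between fractions. A list of 8 fibroblast genes averaged 2.64 to 2.84, with 2 of 8 above the array median, and 0 were called. Of the 4 measured blood cell genes, Cd68, a lysosomal membrane protein that is abundant in macrophages, was higher in the high fractions by 0.82 ± 0.09 (adjusted p = 0.000828). The others, Ptprc, Csf1r and Cd52, differed by -0.05 ± 0.07, 0.04 ± 0.07 and -0.05 ± 0.12 and were not called. In each group 1 of the 4 genes lay above the array median. With Cd68 included, that list averaged 3.54 to 3.71 in the low arrays and 3.72 to 4.02 in the high arrays. The leukocyte gene Ptprc was at 1.56 to 1.82 in the group means. Any part of the Cd68 difference or of blood cells in the cyclin differences was not tested. A list of 8 genes of differentiated lineages averaged 3.70 to 3.90, with 5 of 8 above the array median in each group, and 0 were called. In ESC the list averaged 3.80 to 3.90 in the low arrays and 3.70 to 3.73 in the high arrays. There 8 of 8 genes had an estimate below 0. In iPSC it averaged 3.74 to 3.83 in the low and 3.74 to 3.84 in the high arrays, with 6 of 8 estimates above 0. Any link to the cyclin differences was not tested.

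Cyclin B1, which activates CDK1 for entry into mitosis, gave the largest rise among the 10. In ESC, the low arrays read 7.96, 8.13 and 7.71 for Ccnb1 and the high arrays 8.55, 8.74 and 8.69. In iPSC the low arrays read 8.09, 8.03 and 7.60, and the high arrays 8.79, 8.79 and 8.66. Every high array lay above every low array, with the 2 cell types interleaved inside each fraction. Over both cell types Ccnb1 differed by 0.78 ± 0.10 (limma, adjusted p = 0.00134), and the 6 numbered pairs rose by 0.59 to 1.06. By cell type, the difference was 0.73 ± 0.14 in ESC (adjusted p = 0.0521, or 0.0371 with the replicate number as a block) and 0.84 ± 0.14 in iPSC (adjusted p = 0.0227). In ESC it passed in 7 of 17 alternative limma fits, with adjusted p-values from 0.0196 to 0.202. The iPSC call was lost with the iPSC arrays alone (0.0585) and without any 1 of iPSC low replicate 3 (0.0585), iPSC low replicate 4 (0.0782) or iPSC high replicates 2 (0.0670), 3 (0.0919) and 4 (0.0842). The Ccnb1 probe set was named through its gene number alone, since the platform annotation did not list it. A probe set of Ccnb1-ps, a processed pseudogene that resembles the Ccnb1 mRNA, was also higher over both cell types, by 0.48 ± 0.11 (limma, adjusted p = 0.0339). Its group means were 6.92 in ESC low and 7.07 in ESC high, against 6.66 in iPSC low and 7.47 in iPSC high, so the rise lay mostly in iPSC. Signal may be shared between these copies, so the share of each in the Ccnb1 value is uncertain.

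Cyclin B2, the other mitotic B cyclin, is tied to the Golgi. Its ESC low arrays read 8.55, 8.63 and 8.22 and its ESC high arrays 8.52, 8.77 and 8.41. In iPSC the readings were 8.48, 8.50 and 8.52 in the low fraction and 8.66, 8.60 and 8.69 in the high fraction. The ESC fractions overlapped, whereas the iPSC fractions did not. Ccnb2 differed by 0.13 ± 0.09 over both cell types, with a 95% confidence interval from -0.06 to 0.31 and an adjusted p of 0.533, and was higher in 5 of 6 pairs. That interval lies below the Ccnb1 interval, which starts at 0.57. The log2 ratio of Ccnb2 over Ccnb1 inside an array was lower in the high fractions by 0.66 on average, with values below 0 in 6 of 6 pairs. A two-sided exact permutation test of fraction labels within each cell type gave p = 0.005 for this ratio, the smallest that its 400 permutations can give. It was 1 of 6 ratios between cyclins of the same letter, chosen after the values were seen, and its p adjusted over the 6 was 0.015. With the replicate number as a block, exact sign flips over the 6 pairs gave p = 0.0312, the smallest they can give. Adjusted over the 6 ratios, this p was 0.0938 and did not pass the threshold. A p at that floor can pass after adjustment only if most of the 6 ratios reach the floor, so the sign flips cannot decide the call. A difference in the ratio would not show that Ccnb2 stayed level.

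Cyclin F is the founding F-box protein, and its ligase marks proteins such as ribonucleotide reductase M2 for destruction in G2. ESC low arrays read 8.52, 8.80 and 8.84 for Ccnf, and ESC high arrays 9.12, 9.31 and 9.19. In iPSC the low fraction read 8.61, 8.72 and 8.81 and the high fraction 9.20, 9.21 and 9.17. All 6 high arrays lay above all 6 low arrays. The difference was 0.48 ± 0.07 over both cell types (limma, adjusted p = 0.00448), and pairs rose by 0.35 to 0.60. Within ESC it was 0.49 ± 0.10 (adjusted p = 0.0791) and within iPSC 0.48 ± 0.10 (adjusted p = 0.0624), so neither cell type alone passed the threshold in this fit. With an intensity trend in the variance Ccnf passed in ESC (0.0196) and in iPSC (0.0162), and in iPSC it also passed among probe sets at or above the median level (0.0390) and without ESC low replicate 2 (0.0435).

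Promoters of B1, B2 and F are printed here because these mRNAs are all known to peak late in the cycle, while only B1 and F were called between fractions. The sequences are the 250 bases before the transcription start in RefSeq, assembly GRCm38.p6, read 5′ to 3′ on the gene's strand. All 3 genes lie on the minus strand, with Ccnb1 at chr13:100786487-100786736, Ccnb2 at chr9:70421555-70421804 and Ccnf at chr17:24251410-24251659. Capitals mark matches to the letters TTTGAA, the cell cycle genes homology region (CHR) through which the LIN54 subunit of the DREAM and MYB-MuvB complexes binds, and to CCAAT, the box bound by the trimer NF-Y.
Ccnb1: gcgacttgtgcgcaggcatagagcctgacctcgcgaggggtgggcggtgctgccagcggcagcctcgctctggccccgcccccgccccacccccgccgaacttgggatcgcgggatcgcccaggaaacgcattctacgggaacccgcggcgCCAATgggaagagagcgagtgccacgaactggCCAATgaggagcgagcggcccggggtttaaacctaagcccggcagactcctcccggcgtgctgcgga
Ccnb2: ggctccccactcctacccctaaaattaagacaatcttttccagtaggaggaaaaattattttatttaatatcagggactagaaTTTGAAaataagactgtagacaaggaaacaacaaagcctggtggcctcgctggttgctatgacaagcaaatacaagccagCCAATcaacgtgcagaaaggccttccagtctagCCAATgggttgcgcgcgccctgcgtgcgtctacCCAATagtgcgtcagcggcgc
Ccnf: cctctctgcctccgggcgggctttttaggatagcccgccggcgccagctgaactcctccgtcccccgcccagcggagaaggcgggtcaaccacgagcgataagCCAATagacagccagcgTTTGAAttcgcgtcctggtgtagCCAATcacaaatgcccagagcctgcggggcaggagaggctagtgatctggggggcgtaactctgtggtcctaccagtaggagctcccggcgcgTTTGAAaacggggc
These lines show 2 CCAAT matches and no TTTGAA in Ccnb1, 3 CCAAT and 1 TTTGAA in Ccnb2, and 2 of each in Ccnf. Only these exact letters before the start were searched. The absence of TTTGAA therefore does not show that Ccnb1 lacks a CHR with other letters or past the start. Counted back from the start, the CCAAT matches begin at bases 99 and 67 in Ccnb1, at 87, 54 and 21 in Ccnb2, and at 147 and 107 in Ccnf. The TTTGAA matches begin at base 167 in Ccnb2 and at bases 130 and 14 in Ccnf.

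Over both strands, 33.8% of 32851 RefSeq promoters of this length held CCAAT, 16% held TTTGAA and 5.55% held both. The motifs do not overlap each other in these 3 promoters. Matches to the E2F letters TTTGGCGC, TTTCCCGC, TTTGCCGC and TTTCGCGC, found in 1.86% of all promoters, were absent from the 7 promoters of the 6 cyclins that the table held. Besides the printed ones, these were Ccna1 and the second Ccnd3 promoter, each with 1 CCAAT match, and the first Ccnd3 promoter and Ccne1, with none of the motifs. A match of letters is a description and not a tested binding site, and Ccnb2, which was not called, held both motifs.

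Cyclin E2 fell in the fraction where B1 and F rose. E cyclins activate CDK2 to license and fire replication origins. ESC low arrays read 6.44, 6.01 and 6.09 for Ccne2, and ESC high arrays 5.66, 5.32 and 5.57. In iPSC the readings were 6.23, 6.18 and 6.25 in the low fraction and 5.30, 5.53 and 5.36 in the high fraction. No high array reached the lowest low array in either cell type. Ccne2 differed by -0.74 ± 0.09 over both cell types (limma, adjusted p = 0.00102), and single pairs by -0.93 to -0.52. In ESC the difference was -0.67 ± 0.13 (adjusted p = 0.0494) and in iPSC -0.82 ± 0.13 (adjusted p = 0.0173). The ESC call sat at the threshold. It was lost when any array other than ESC low replicate 3 was left out, with adjusted p-values from 0.0608 without iPSC low replicate 2 to 0.202 without ESC high replicate 3, and at 0.216 with the ESC arrays alone. The iPSC call was lost without iPSC low replicate 3 (0.0563), iPSC low replicate 4 (0.0749), iPSC high replicate 2 (0.0584) or iPSC high replicate 4 (0.0842).

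Cyclin E1, the other activator of CDK2 at entry into S phase, differed less. Its ESC low arrays read 8.08, 8.07 and 7.89, its ESC high arrays 7.98, 7.86 and 7.93. In iPSC the low fraction read 7.80, 8.05 and 8.03 and the high fraction 7.70, 7.74 and 7.72. The iPSC high arrays were the lowest of the 12 and overlapped no other group, whereas the ESC fractions overlapped. Over both cell types Ccne1 differed by -0.17 ± 0.07, with an interval from -0.31 to -0.02, was lower in 5 of 6 pairs, and missed the threshold after adjustment (adjusted p = 0.250). The Ccne2 over Ccne1 ratio was lower in the high fractions by 0.58 on average, below 0 in 6 of 6 pairs (exact permutation p = 0.005, or 0.015 adjusted over the 6 ratios). Under the replicate block this ratio did not pass either, with an exact sign-flip p of 0.0312, or 0.0938 adjusted over the 6 ratios. The same limit holds, so the sign flips cannot decide this call.

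**Figure D2:**
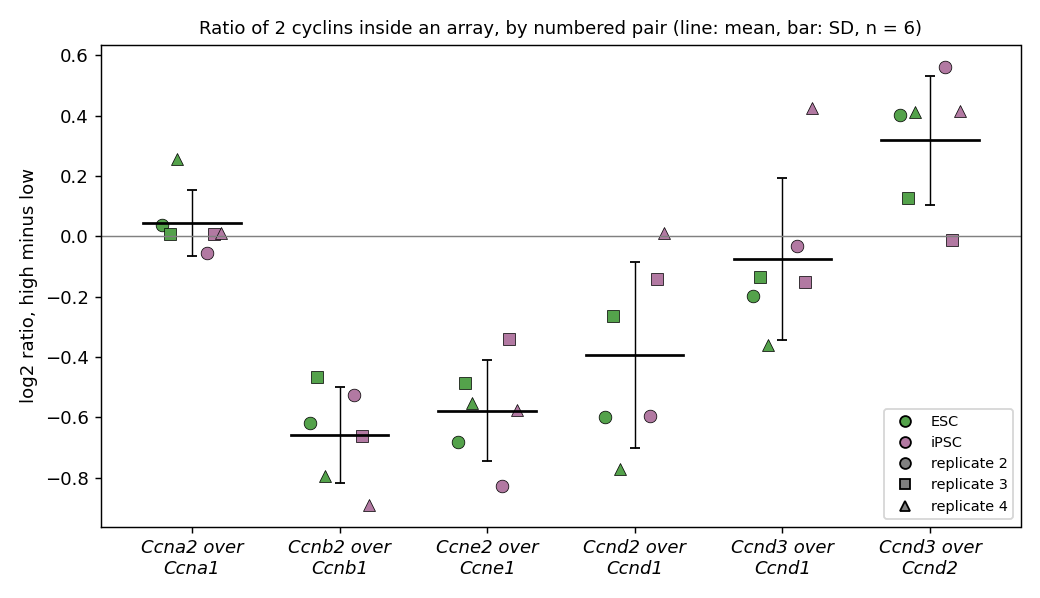
Difference between high and low fractions in the log2 ratio of 2 cyclins of one family, for each of the 6 numbered pairs (green ESC, purple iPSC, symbol by replicate number), with the mean (line) and SD (bar). The Ccnb2 over Ccnb1 and Ccne2 over Ccne1 ratios are below 0 in all 6 pairs, and the 4 other ratios have pairs on both sides of 0.

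Cyclin A2, the A cyclin of dividing body cells, was the steadiest member. ESC low arrays read 9.53, 9.45 and 9.51 and ESC high arrays 9.50, 9.56 and 9.58. The iPSC arrays read 9.41, 9.47 and 9.61 in the low fraction and 9.53, 9.47 and 9.51 in the high fraction. All groups overlapped, and the whole range over 12 arrays was 0.20. Ccna2 differed by 0.03 ± 0.06 over both cell types (adjusted p = 0.869), with an interval from -0.10 to 0.16. Cyclin A1 is best known from the male germ line. Ccna1 ranged from 3.61 to 4.47 over the 12 arrays, with 54.8% of probe sets below its mean, and differed by -0.02 ± 0.13 (adjusted p = 0.975). Its arrays overlapped between fractions in both cell types.

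The D cyclins link growth factor signals to CDK4 and CDK6. Ccnd1 had the widest range of the 10, at 2.08 between the lowest and highest array. ESC low arrays read 6.98, 6.22 and 5.87 for it and ESC high arrays 7.66, 6.62 and 6.43, so replicate 2 was the highest in each fraction. In iPSC the readings were 6.36, 6.29 and 5.92 in the low fraction and 6.51, 6.36 and 5.58 in the high fraction, with replicate 4 the lowest in each. Fractions overlapped in both cell types, although the high array read higher than the low array in all 3 ESC pairs. The ESC difference of 0.55 ± 0.35 was not called (adjusted p = 0.731, or 0.0995 with the replicate block), and the one in iPSC was -0.04 ± 0.35. Over both cell types Ccnd1 differed by 0.26 ± 0.24 (adjusted p = 0.678, or 0.138 with the replicate block) and was higher in 5 of 6 pairs.

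Ccnd3, the D cyclin prominent in lymphoid cells, read 6.09, 6.70 and 6.79 in ESC low and 6.57, 6.97 and 6.99 in ESC high. Its iPSC arrays read 6.66, 6.75 and 6.84 in the low fraction and 6.78, 6.67 and 6.93 in the high fraction. Here ESC replicate 2 was the lowest in each fraction, the reverse of Ccnd1. The difference over both cell types was 0.18 ± 0.12 (adjusted p = 0.528, or 0.186 with the replicate block), and Ccnd3 was higher in 5 of 6 pairs. Ccnd2, a D cyclin of the gonads, brain and B cells, lay low on the scale, between 1.74 and 2.78, with a mean of 2.24 that exceeded only 27.0% of probe sets. It differed by -0.14 ± 0.18 (adjusted p = 0.772, or 0.376 with the replicate block) and was lower in 4 of 6 pairs. The values carry no detection call, so whether Ccnd2 was above background cannot be stated. The ratios among D cyclins and within the A pair had exact permutation p-values from 0.16 to 0.845 before adjustment.

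**Figure D3:**
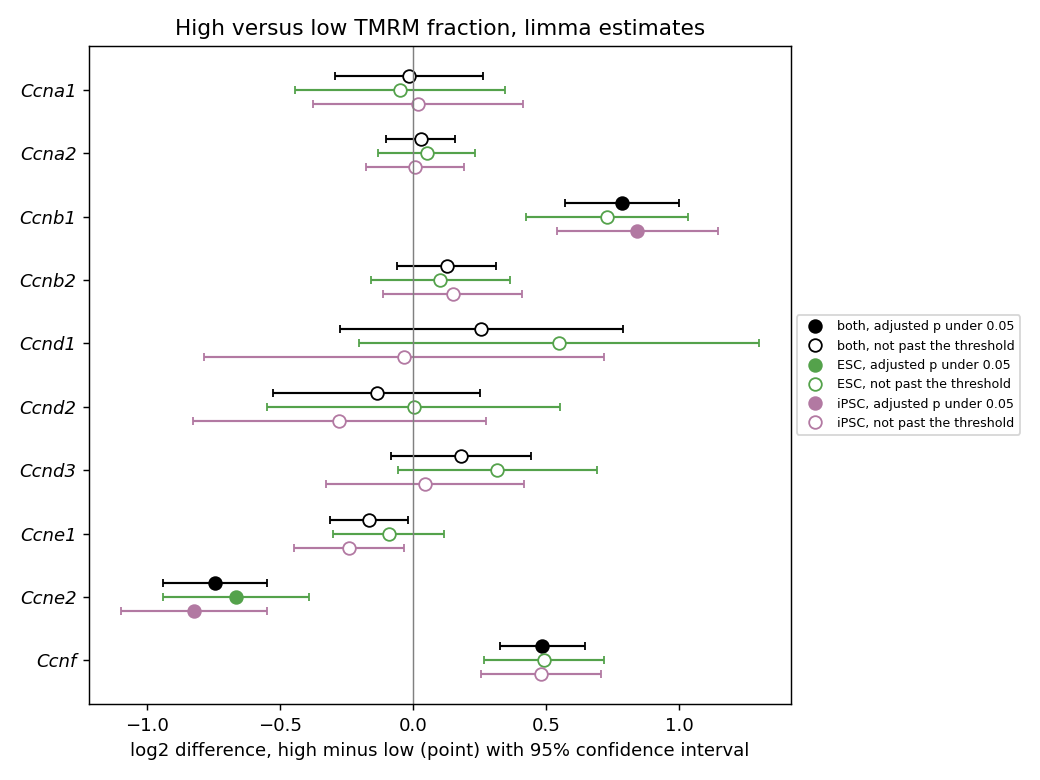
Log2 difference of high minus low for each cyclin over both cell types (black), in ESC (green) and in iPSC (purple), with 95% confidence intervals and filled points where the adjusted p was under 0.05. Ccnb1 (0.78), Ccnf (0.48) and Ccne2 (-0.74) stand clear of 0 in all 3 comparisons, and Ccnd1 and Ccnd2 have the widest intervals in this fit without a block. Over both cell types the SE of Ccnd1 was 0.24, or 0.08 with the replicate block, and that of Ccnd2 0.18, or 0.08.

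Taken by cell type, 1 of the 10 cyclins was called in ESC (Ccne2, lower) and 2 in iPSC (Ccnb1 higher and Ccne2 lower). Among all probe sets, 0.305% were called higher and 0.0516% lower in ESC, and 0.349% higher and 0.198% lower in iPSC. The arrays of high and low did not overlap for 3 cyclins in ESC (Ccnb1, Ccnf and Ccne2) and for 5 in iPSC (also Ccnb2 and Ccne1), against 13.1% and 19.3% of all probe sets. Of the 10, 2 lay higher without overlap in both cell types, as did 1.98% of all probe sets, and 1 lay lower, as did 1.83%. The difference of the fraction effects between iPSC and ESC was tested directly in limma. It was called for 0 of 10 cyclins and for 0% of probe sets. In this fit, which has no replicate block, an unadjusted p under 0.05 was found for 0 cyclins and 1100 probe sets (4.36%). Ccnd1 had the largest estimate of the 10, at -0.58 ± 0.49. With the replicate block its SE was 0.16 and it was not called (adjusted p = 0.793). The 95% interval of the difference between cell types, without the block, ran from -0.31 to 0.54 for Ccnb1, from -0.55 to 0.23 for Ccne2 and from -0.33 to 0.31 for Ccnf. Differences between the cell types inside these bounds were not resolved by 3 arrays a group.

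Between iPSC and ESC, with the fractions averaged, 0 of 10 cyclins were called, and 0 had an unadjusted p under 0.05 in limma, against 14.7% of all probe sets. Of all probe sets, 0.916% were called higher and 1.96% lower in iPSC. Ccnd1 gave the largest estimate, lower in iPSC by 0.46 ± 0.24 (adjusted p = 0.430). For Ccnb1 the estimate was 0.03 ± 0.10, for Ccne2 -0.04 ± 0.09 and for Ccnf -0.01 ± 0.07. Ordered by level, Ccnb1 ran from iPSC high (8.75 ± 0.07, SD, n = 3) through ESC high (8.66 ± 0.10) and ESC low (7.93 ± 0.21) to iPSC low (7.91 ± 0.27). For Ccnf the order was ESC high (9.21 ± 0.10), iPSC high (9.19 ± 0.02), ESC low (8.72 ± 0.17) and iPSC low (8.71 ± 0.10). Ccne2 ran the other way, from iPSC low (6.22 ± 0.04) and ESC low (6.18 ± 0.23) to ESC high (5.52 ± 0.18) and iPSC high (5.40 ± 0.12). In all 3 genes only the middle step, between a high and a low fraction, separated neighbours without overlap. For Ccne1 only the last step, from ESC high to iPSC high, did so, and for the other 6 cyclins every neighbouring pair overlapped.

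The probe sets most like each called cyclin over the 12 arrays were ranked by Pearson r among 12192 named probe sets at or above the median level. Those nearest to Ccnb1 were Bub3 (0.968), Ephx3 (0.965) and Arl6ip1 (0.961). Nearest to Ccnf were Mir382 (0.962), Ckap5 (0.961) and Arhgef39 (0.961), and nearest to Ccne2 were B230219D22Rik (0.963), Pcdhga1 (0.954) and Slc35e2 (0.941). The arrays share the fractions that part these cyclins, so r over them holds the split between fractions as well as the scatter inside groups. Pcdhga1 belongs to a cluster whose genes share exons, and its signal may be shared with its neighbours.

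The kinases and the proteins that switch, block, destroy or transcribe cyclins were read in the same fit, in which 1.6% of all probe sets were called higher and 0.905% lower. Of 6 CDK partners, 1 rose in the high fractions, 0 fell and 5 were not called. It was Cdk1, the kinase of the B cyclins, at 7.24 ± 0.17 in ESC low against 7.89 ± 0.15 in ESC high and at 7.31 ± 0.02 in iPSC low against 7.99 ± 0.14 in iPSC high (SD, n = 3). Cdk1 differed by 0.66 ± 0.08 (limma, adjusted p = 0.00112). Its high arrays lay above its low arrays in both cell types, as did those of 1.98% of all probe sets. Cdk2, the kinase of the E cyclins, differed by -0.26 ± 0.07 without passing the threshold (adjusted p = 0.0715). Its high arrays lay below its low arrays in both cell types, as did those of 1.83% of all probe sets. Cdk2 passed with the arrays centred on their medians (0.0430), with an intensity trend in the variance (0.0185) and among probe sets at or above the median level (0.0390). Of 7 CDK inhibitors, 0 were called. Cdkn1a, which encodes p21, differed by -0.36 ± 0.12 (adjusted p = 0.144, or 0.0167 with the replicate block), and Cdkn1b, which encodes p27, by 0.10 ± 0.06 (adjusted p = 0.521).

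Among 8 genes of the phosphorylation switch of CDKs, 2 rose and 0 fell, beside the 1.6% of all probe sets called higher. Both encode phosphatases that activate CDK1. Cdc25b differed by 0.49 ± 0.08 (adjusted p = 0.00723) and Cdc25c by 0.37 ± 0.08 (adjusted p = 0.0217). Cdc25c no longer passed once ESC low replicate 2 (0.0540), ESC high replicate 3 (0.0529), iPSC high replicate 2 (0.0534) or iPSC high replicate 4 (0.0551) was left out. Of 13 genes of cyclin destruction, 3 rose and 0 fell, and all 3 belong to the anaphase-promoting complex, the ligase that removes A and B cyclins. Its ubiquitin-conjugating enzyme Ube2c differed by 0.71 ± 0.06 (adjusted p = 0.000232), its G1 activator Fzr1 by 0.71 ± 0.10 (0.00327) and its mitotic activator Cdc20 by 0.51 ± 0.08 (0.00475). The fractions of each of these 5 genes did not overlap in either cell type, with the high arrays above. The same held for 1.98% of all probe sets. These genes were called on the same arrays, so the lack of overlap is no separate support.

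Of 20 genes of cyclin transcription, 3 fell and 0 rose, beside the 0.905% of all probe sets called lower. Rb1, the retinoblastoma protein that holds back E2F, differed by -0.72 ± 0.06 (adjusted p = 0.000232). Its levels were 6.78 ± 0.07 in ESC low and 6.16 ± 0.09 in ESC high, and 6.73 ± 0.06 in iPSC low and 5.90 ± 0.03 in iPSC high (SD, n = 3). E2f8, an E2F family repressor, differed by -0.41 ± 0.08 (adjusted p = 0.0194) and Nfyb, the B subunit of NF-Y, by -0.38 ± 0.07 (adjusted p = 0.0120). E2f8 no longer passed once ESC low replicate 2 (0.0509), ESC high replicate 3 (0.0569) or iPSC low replicate 3 (0.0504) was left out. Of 15 other cyclins, 2 fell and 0 rose. They were Ccng1, a target of p53 that does not drive the cycle, by -0.61 ± 0.09 (adjusted p = 0.00392), and Ccnt1, the partner of CDK9 in transcription elongation, by -0.37 ± 0.08 (adjusted p = 0.0309). The Ccnt1 call was lost when any 1 of 8 arrays was left out, namely ESC low replicate 2, all 3 ESC high arrays, iPSC low replicates 2 and 3, and iPSC high replicates 2 and 4, with adjusted p-values from 0.0524 to 0.0830. Median log2 differences were 0.10 for the CDK partners, 0.06 for the inhibitors, -0.03 for the switches, 0.09 for destruction, -0.07 for transcription and -0.12 for the other cyclins, against 0.00 over all probe sets.

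**Figure D4:**
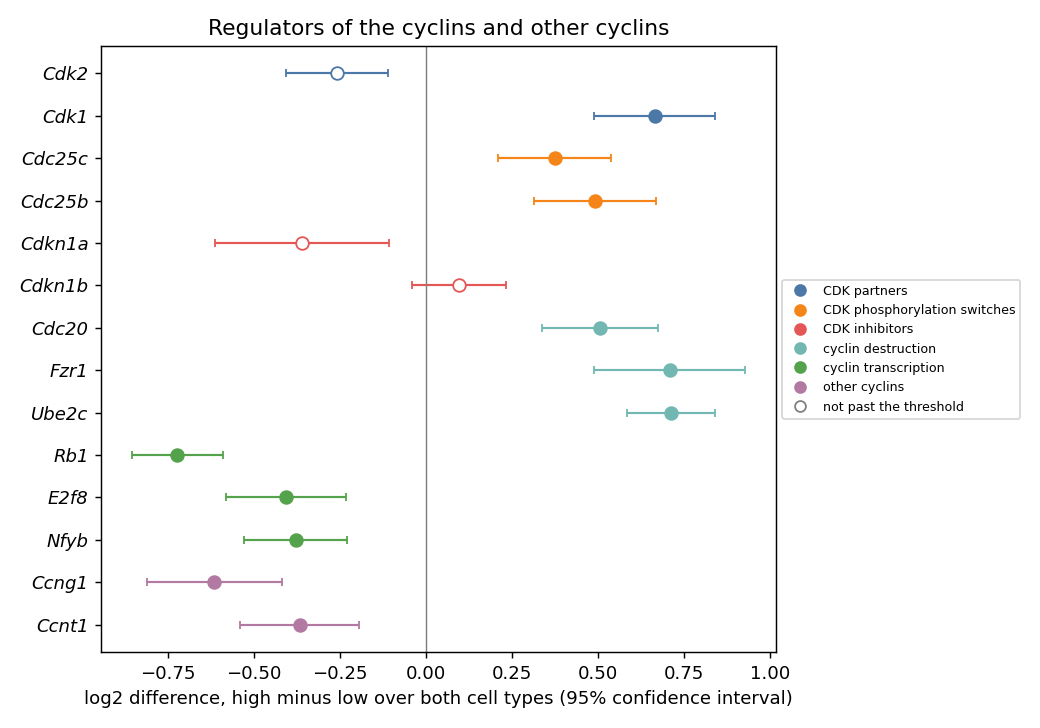
Log2 difference of high minus low over both cell types for the named regulators and other cyclins, coloured by list, with 95% confidence intervals and open points where the adjusted p was not under 0.05. Cdk1, Cdc25b, Cdc25c, Ube2c, Fzr1 and Cdc20 lie above 0, and Rb1, E2f8, Nfyb, Ccng1 and Ccnt1 lie below 0.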

How the data were processed

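The authors deposited log2 expression values for 12 Affymetrix arrays, 1 column per array, made with RMA (affy 1.36.1, R 2.15.1) per the submitters' processing notes. RMA includes quantile normalization over all arrays, which removes any shift shared by all genes. Chip definition and genome build: not given in the sources used here. Probe sets are gene numbers. Of 25206, 23185 were named by the platform annotation, 555 (Ccnb1 among them) by gene number in a RefSeq table of assembly GRCm38.p6, and 1466 stayed unnamed but were tested. Promoters came from RefSeq. The number of arrays limits the precision.

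limma 3.58.1 in R 4.3.3 was fitted to all 12 arrays with 1 mean per group and no block, with Benjamini-Hochberg adjustment over 25206 probe sets and a threshold of 0.05. The fit was tested on simulated data with independent noise in each array. That simulation leaves out the correlation between equal-number arrays given below, so it does not show how the fit behaves under it. Figures were drawn with matplotlib 3.10.9. The members, lists and tests were chosen with earlier results of these data known, and the ratios after seeing the values. All 10 cyclins were named, and from each list the called genes and the 2 with the lowest p. Of the listed markers, Lyz2 and Hbb-bt were not analysed here. Equal-number low and high arrays correlated in their residuals at 0.233 to 0.341 in ESC and 0.107 to 0.213 in iPSC, all over 0.1, so the numbers were taken to pair fractions, an inference from the data. Unequal-number low and high arrays correlated at -0.226 to -0.0525 in ESC and -0.124 to 0.00255 in iPSC. Equal numbers of ESC and iPSC correlated at -0.0948 to 0.131 and were not taken as pairs. Unequal numbers of ESC and iPSC, which cannot be pairs, ranged from -0.158 to 0.167. The iPSC values of 0.107 and 0.127 lie inside that range, so a cut at 0.1 does not set pairs apart. The pairing in iPSC is therefore uncertain, as are the pair counts, block fits and sign flips that use it.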

Additional observations from a re-analysis of the deposited data

How the results depend on the processing

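Over both cell types 3 cyclins were called under all 16 alternatives, the same 3 genes each time, and the counts for iPSC against ESC and for the difference between cell types stayed at 0. In ESC the count of 1 became 2 with the replicate block, with median-centred arrays and among probe sets at or above the median level, 3 with an intensity trend, and 0 with ESC arrays alone, and ranged from 0 to 2 over the fits that leave out 1 array. In iPSC the count of 2 became 3 with an intensity trend and among probe sets at or above the median level (Ccnf added) and 1 with iPSC arrays alone, and ranged from 0 to 3 when 1 array was left out. The fits on 1 cell type or fewer arrays have fewer samples; otherwise the cause was not tested. Among the other results from limma, the replicate block changed 1 call, that of Cdkn1a (adjusted p = 0.0167). The ratios Ccnb2 over Ccnb1 and Ccne2 over Ccne1 stayed past the threshold in all 12 fits without 1 array (adjusted p from 0.015 to 0.03). Exact sign flips over the 6 pairs, an alternative added after seeing the data, gave p = 0.0312 for both ratios, the smallest possible. Adjusted over the 6 ratios this p was 0.0938, so neither passed. A p at that floor can pass after adjustment only if most of the 6 ratios reach the floor, so the sign flips cannot decide these calls. No called value changed sign. With 3 arrays a group and no detection calls, small differences and low levels such as that of Ccnd2 remain unresolved.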
